A study of Mus musculus with 2 samples.

Results

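The Hes and Hey genes, the transcriptional effectors of Notch signalling, and Rbpj, the DNA-binding partner of the Notch receptors, were examined for H3K4me3 and H3K27me3 in the soft pulp of the growing mouse incisor, in cells that had lately replicated their DNA. The 10 genes were Hes1, Hes2, Hes3, Hes5, Hes6, Hes7, Hey1, Hey2, Heyl and Rbpj, taken by name from the 21631 protein-coding RefSeq genes on the autosomes and the X chromosome. For each, the gene plus 10 kb on either side was searched for called islands of enrichment of either mark. The pulp came from CD1 mice 5 days old, killed 24 h after 1 injection of EdU at 3.3 µg for each gram of weight. EdU is a thymidine analogue that replicating cells take up, and EdU-positive cells were sorted for chromatin immunoprecipitation. Age, strain, dose and time were the same for both marks, and there was 1 library per mark and no untreated group. With no replicates, no difference was tested. The sort kept cells that had replicated DNA, without a marker of cell type.

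When a Notch receptor is cut after binding its ligand, its intracellular domain enters the nucleus, joins Rbpj and Mastermind proteins, and switches on Hes and Hey genes. Their products are basic helix-loop-helix repressors. Hes proteins recruit Groucho/Tle co-repressors, and many members of the family hold back differentiation genes in progenitor cells. H3K4me3 is found at promoters that are active or poised, and H3K27me3 is the mark of Polycomb complex 2. Where both lie on the same stretch in a pool of cells, both marks on the same chromosomes cannot be told apart from each mark in different cells.

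An H3K4me3 island lay within 10 kb of all 10 genes, where 67.4% of all protein-coding genes had one. H3K27me3 lay within 10 kb of 7 genes (Hes1, Hes2, Hes3, Hes5, Hey1, Hey2 and Heyl), against 32.7% of all genes. In each of these 7 the window held both marks (27.5% of all genes), and an island of one overlapped an island of the other (21.5% of all genes). Hes6, Hes7 and Rbpj had H3K4me3 only, as had 39.8% of all genes. Counted over the gene body alone, H3K4me3 touched 8 genes (62.2% of all genes) and H3K27me3 the same 7 (23.6%), and Hes2 and Hes3 had H3K27me3 without H3K4me3 (5.51%). Both marks then touched 5 genes, Hes1, Hes5, Hey1, Hey2 and Heyl, against 18.1% of all genes and 12.1% of genes no longer than 20 kb, a length that all members but Rbpj share.

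Each island carries the authors' height at its summit, and heights are compared here only within a mark. The highest H3K4me3 summit near a member ranged from 30 to 184 with a median of 126, beside a median of 120 (interquartile range 71 to 158) over the 14569 genes with such an island. For H3K27me3 the 7 members ranged from 8 to 80 with a median of 39, beside 21 (12 to 44) over 7070 genes. The widest H3K27me3 island had a median of 17.6 kb at the members, beside 8.0 kb (upper quartile 13 kb) over all genes that had one. For the widest H3K4me3 island the medians were 6.20 and 4.40 kb (upper quartile 5999 bp). Median heights of the members thus lay within the interquartile range of all genes for both marks, and median widths above its upper end. For H3K4me3 that margin was small and counted at Hes3 an island of 6.60 kb that does not touch the gene. The median width of the members' highest H3K4me3 island was 5.80 kb within 1 kb (9 members). Over the gene body alone it was 6.40 kb (8 members). When only islands above the median height of their mark were kept, both marks stayed at 3 members, Hes3, Hes5 and Hey1 (9.84% of all genes). At Hes3 and Hes5 the H3K4me3 islands kept have their summits in neighbouring genes. H3K4me3 stayed at 7 members (44.8% of all genes), without Hes2, Hey2 and Heyl, and H3K27me3 at 6 (23.3%), without Hes1.

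**Figure D1:**
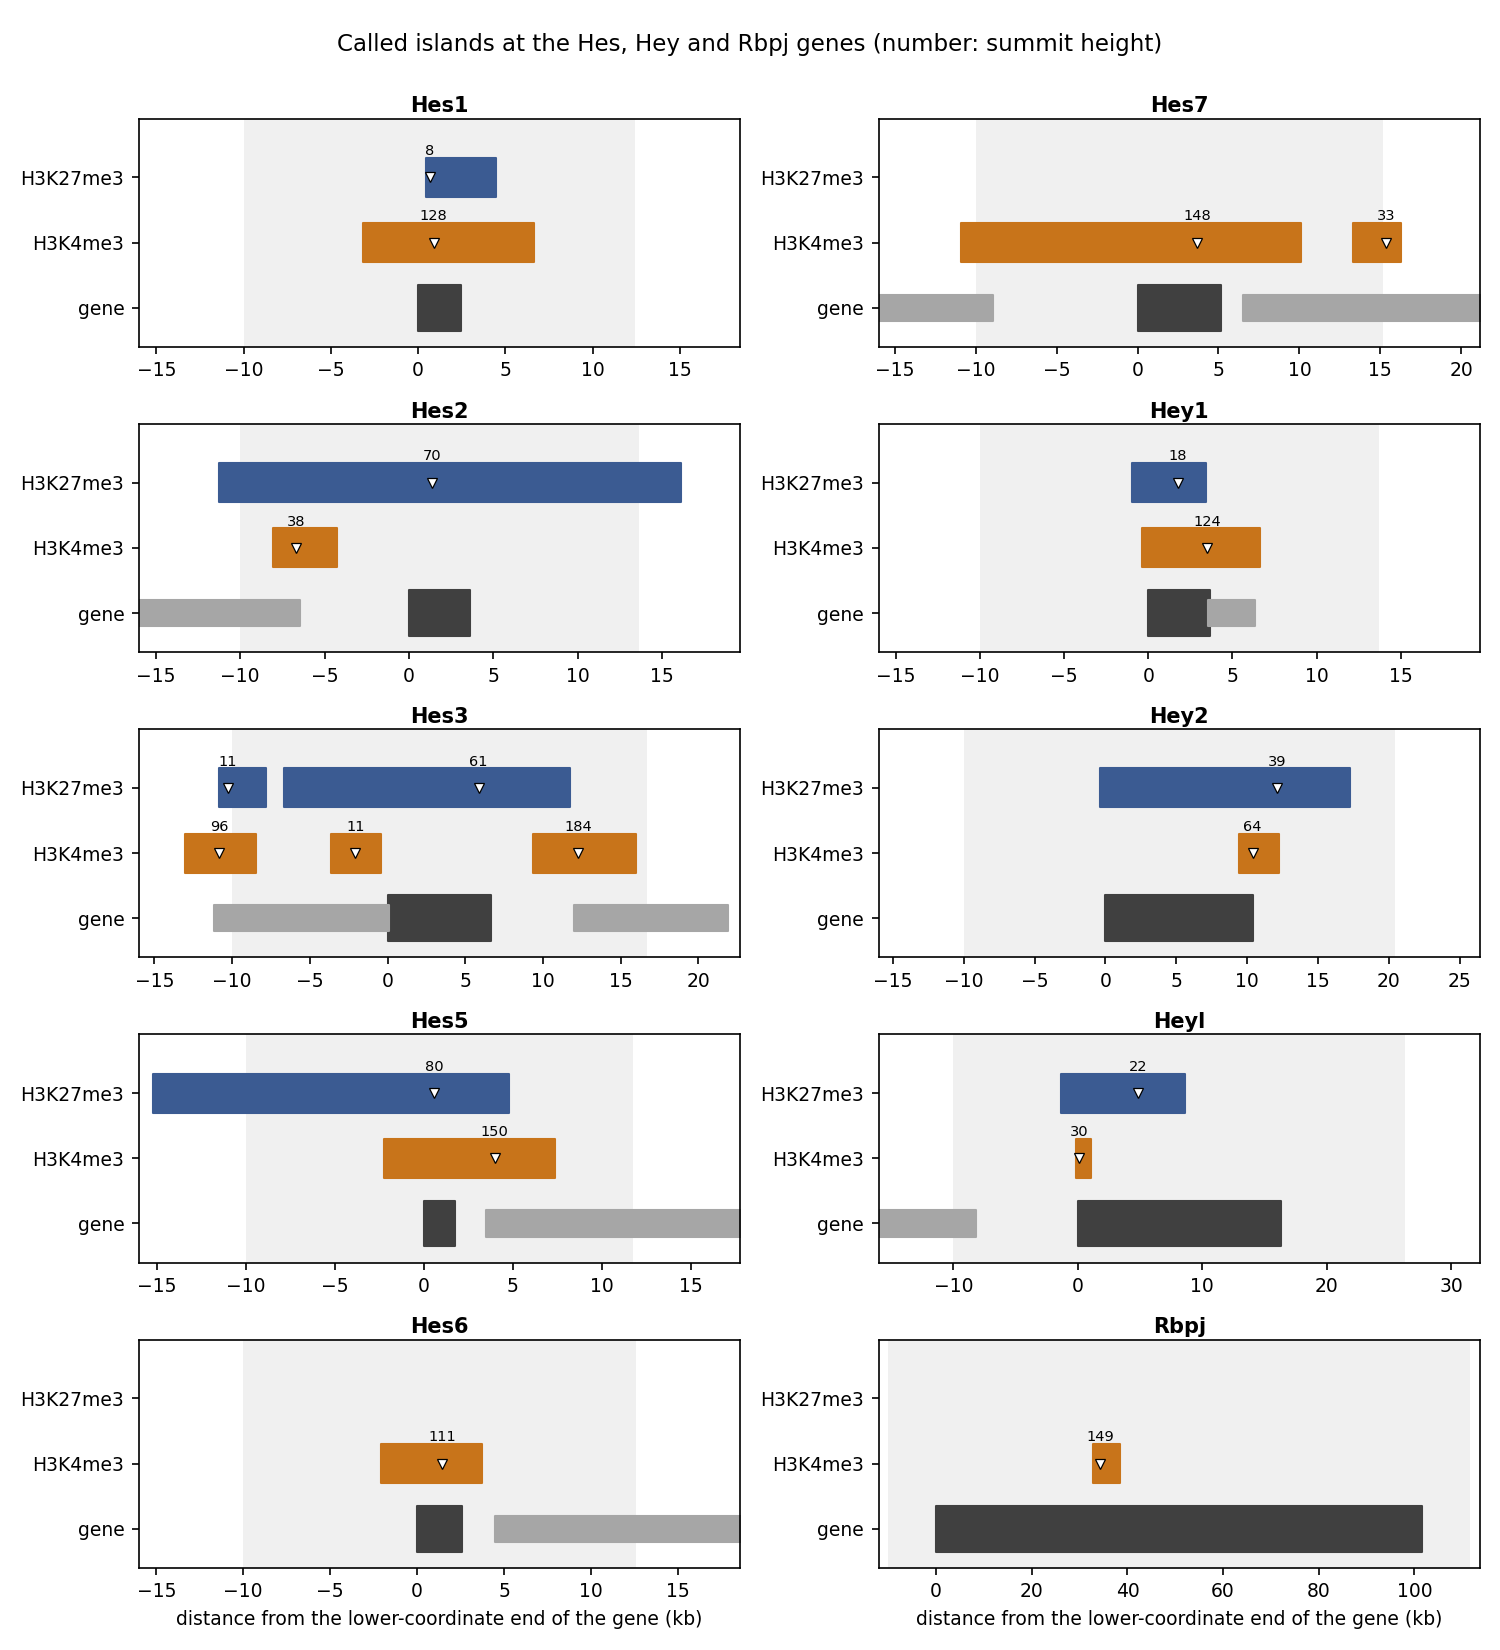
Islands of H3K4me3 (orange) and H3K27me3 (blue) at the 10 genes, with distance from the lower-coordinate gene end in kb on the horizontal axis. Dark boxes are the members, light boxes other protein-coding genes within 10 kb, grey shading the searched window, and triangles the summits with their heights. Hes6, Hes7 and Rbpj have no blue bar, and at Hes2 and Hes3 no orange bar touches the dark box.

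Hes1, the most widely used Notch target of the family, lies on chromosome 16 (30065357 to 30067796 on mm10, RefSeq gene 15205). An H3K4me3 island 9.80 kb wide (30062201 to 30071999) covered the whole gene and ran 3.16 kb beyond its lower-coordinate end. Its summit, with a height of 128, lay inside the gene, and the island was wider than 97.8% of all H3K4me3 islands. Thus Hes1 had a broad H3K4me3 domain of its own, shared only with the long noncoding RNA gene Gm32998. The H3K27me3 island there was small, 4.0 kb wide (30065801 to 30069799) with a height of 8, where the lowest H3K27me3 summit of the genome was 6. Only 4.92% of H3K27me3 islands were lower, and all 7 other H3K27me3 islands within 1 Mb of the gene were higher. It lay wholly inside the H3K4me3 island, and the summits were 224 bp apart. Of the 4264 overlapping pairs of islands in the genome, 179 (4.20%) had H3K27me3 inside H3K4me3 in this way, 2932 (68.8%) had the reverse, and 1153 (27.04%) were staggered.

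By 4 percentile ranks over all protein-coding genes (height and width of each mark), the 3 genes nearest to Hes1 were Prrx2, a homeobox gene of craniofacial mesenchyme, Efnb1, which encodes ephrin B1, and Ndufa11, a subunit gene of respiratory complex I. Their Euclidean distances were 2.81, 3.40 and 4.15 percentile points. Within 10 kb of Prrx2 the widest H3K4me3 island was 12 kb and the highest H3K4me3 summit 127. For H3K27me3 the widest island was 4.40 kb and the highest summit 9. The likeness is over 2 libraries only and says nothing about shared regulation.

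Hes5, a Notch target best known from neural progenitors, lies on chromosome 4 (154960626 to 154962372). Its H3K27me3 island had a height of 80, the highest of the members and above 98.3% of all H3K27me3 islands, and was 19999 bp wide (154945401 to 154965399). The summit lay inside Hes5, 294 bp from the RefSeq transcript start at 154960923. An H3K4me3 island of 9.60 kb (154958401 to 154967999) with a height of 150 covered the gene as well, and 6999 bp was shared by both islands. The H3K4me3 summit, however, lay 3.69 kb from the Hes5 start, inside the neighbouring Pank4 and the noncoding gene Gm42363. The height of 150 therefore belongs to a place at Pank4, a pantothenate kinase family gene, and the H3K4me3 level at Hes5 itself cannot be read from these files. The summits of the 2 marks were 3.39 kb apart, with H3K27me3 highest at Hes5 and H3K4me3 highest at Pank4.

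Hes2 and Hes3, members with a narrower known expression, lie 123 kb apart on the same chromosome, and Hes5 lies 2.67 Mb beyond Hes3. Hes2 (152158867 to 152162469) was covered from end to end by 27.4 kb of H3K27me3 (152147601 to 152174999), the widest such island of the members, with a height of 70 and its summit inside the gene. The only H3K4me3 island of its window (3.80 kb, height 38) lay 4.27 kb away at Espn, the espin gene, wholly inside the H3K27me3 island. Thus none of the H3K4me3 near Hes2 touched the gene.

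Hes3 (152285250 to 152291911) was likewise covered in full by an H3K27me3 island of 18.4 kb (152278601 to 152296999), with a height of 61 and the summit inside the gene. A smaller H3K27me3 island (2999 bp, height 11) lay 7.85 kb away in Gpr153. Of the 3 H3K4me3 islands in its window, the highest (184, 6.60 kb) was at Icmt, 2.69 kb beyond the gene, and another (96, 4.60 kb) lay at the lower-coordinate end of Gpr153. The nearest had a height of 11, a value that only 3.26% of H3K4me3 islands fell below, and ended 451 bp short of Hes3. Gpr153 encodes an orphan receptor and Icmt a protein methyltransferase, and the summit of each of the 3 islands lay in one of these neighbours.

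The 3 highest H3K27me3 summits of the family, those at Hes5, Hes2 and Hes3, all stood on this stretch of chromosome 4. Among other H3K27me3 islands within 1 Mb, whose median height was 12 around Hes2 (35 islands), 12 around Hes3 (39 islands) and 14 around Hes5 (33 islands), 1, 3 and 1 were higher than the member. The surroundings of Hes2 and Hes3 overlap, so these counts share islands, and the Hes2 island (height 70) is 1 of the 3 higher than that of Hes3. The members' own islands were thus well above the middle of their surroundings without being the highest there.

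**Figure D2:**
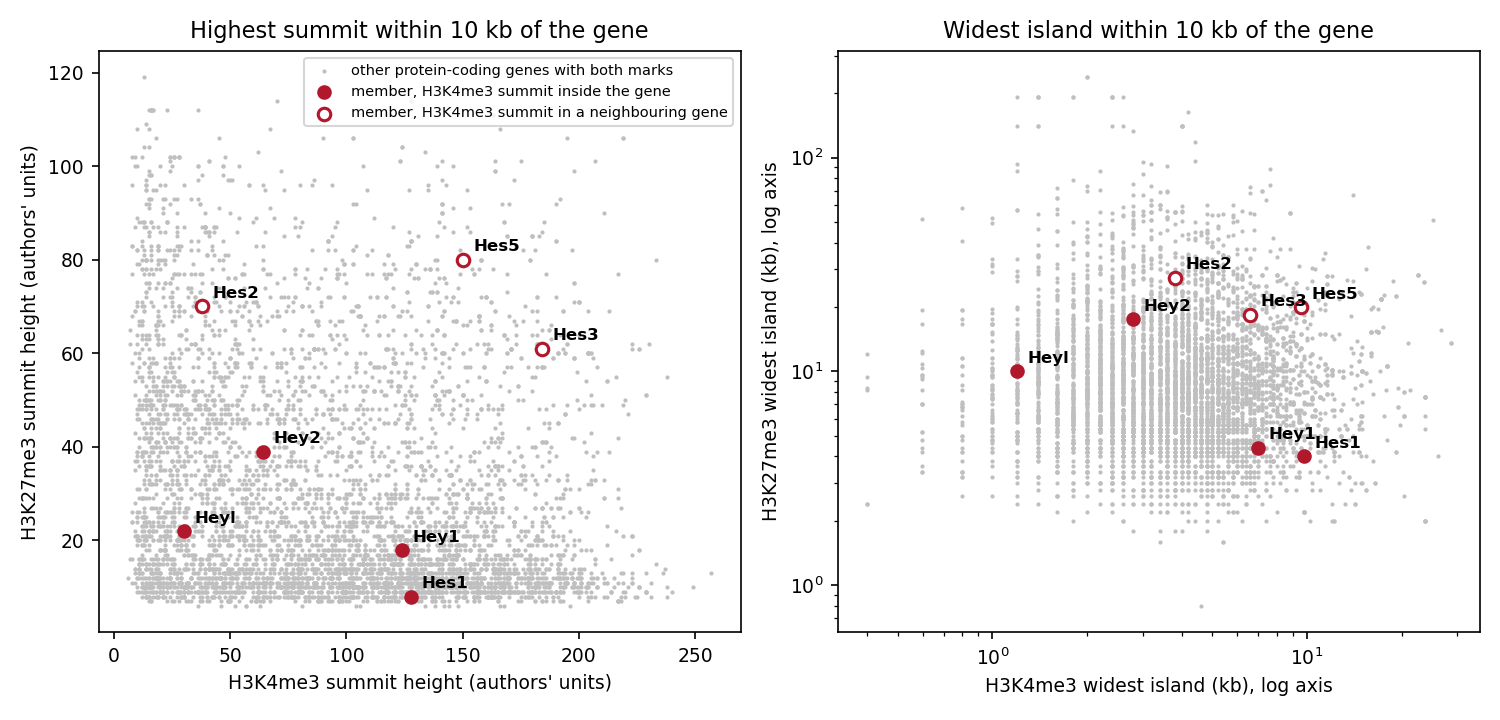
Highest summit (left, authors' height units) and widest island (right, kb on log axes) of H3K4me3 on the horizontal and H3K27me3 on the vertical axis, within 10 kb of each gene with both marks. Grey points are other genes, filled red points members whose H3K4me3 summit lies inside the gene, and open red points Hes2, Hes3 and Hes5, whose H3K4me3 summit lies in a neighbouring gene. Among the 7 members shown, Hes1 and Hey1 have the lowest H3K27me3 heights (8 and 18), with H3K4me3 heights of 128 and 124. The 18 of Hey1 is still above 69.0% of all H3K27me3 islands. Hes5, Hes2 and Hes3 sit highest of the members in H3K27me3.

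Hes6, which differs from other Hes proteins in that it opposes Hes1 and promotes neuronal differentiation, lies on chromosome 1 (91411483 to 91414038). It had 1 H3K4me3 island of 5.80 kb (91409401 to 91415199), with a height of 111 and its summit inside the gene, 293 bp from the nearer of its RefSeq starts. No other annotated gene lay under it. The nearest H3K27me3 islands stood 62.3 kb away at Espnl (height 50) and 125 kb away on the other side.

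Hes7, an oscillating gene of the somite clock, lies on chromosome 11 (69118906 to 69124054). An H3K4me3 island of 21.0 kb (69108001 to 69128999) covered it, wider than 99.9% of H3K4me3 islands, with a height of 148. This stretch ran from the higher-coordinate end of the circadian gene Per1 to the lower-coordinate end of the lipoxygenase gene Aloxe3 and held 7 tRNA genes. The summit lay inside Hes7 and the overlapping transcript 9130213A22Rik, 2.14 kb from the Hes7 RefSeq start at 69120453. The share of Hes7 in the island's width cannot be told apart from that of its neighbours. The nearest H3K27me3 island was 29.5 kb away at Alox12b (height 22).

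The Hey genes, which act downstream of Notch in vessels, heart and mesenchyme, all had both marks within the gene, in amounts that differed. Hey1 (chromosome 3, 8663359 to 8667038) had an H3K4me3 island of 6999 bp (8663001 to 8669999) with a height of 124 and the summit 189 bp inside the higher-coordinate end. That end overlaps the predicted coding gene LOC115489673, which the island also covered. Its H3K27me3 island was 4.40 kb wide (8662401 to 8666799) with a height of 18, above 69.0% of H3K27me3 islands, and 86.4% of it lay under H3K4me3. The summits were 1.73 kb apart, and the H3K27me3 island ended 239 bp inside the end of the gene where H3K4me3 was highest.

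Hey2, on chromosome 10 (30832359 to 30842783), showed the reverse arrangement of widths. H3K27me3 covered the whole gene in an island of 17.6 kb (30832001 to 30849599) with a height of 39, and H3K4me3 formed an island of 2.80 kb (30841801 to 30844599) with a height of 64 wholly inside it. The H3K4me3 summit lay 30 bp from the RefSeq start at 30842783, while the H3K27me3 summit lay 1.67 kb upstream of that start. Within 1 Mb of Hey2 there were 0 other H3K27me3 islands, and the nearest were 1231 and 2044 kb away. Hey2 was thus an isolated H3K27me3 domain, which held for no other member with this mark, since those had 7 to 39 other islands within that distance.

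Heyl, on chromosome 4 (123233556 to 123249870) and 28.9 Mb from Hes2, had the lowest value when each member is taken by its highest H3K4me3 island, and the narrowest H3K4me3 island in any of the windows. It was 1.20 kb wide (123233401 to 123234599) with a height of 30, narrower than all but 3.47% of H3K4me3 islands, and sat on the lower-coordinate gene end with its summit 77 bp inside. H3K27me3 surrounded it with an island of 9999 bp (123232201 to 123242199) and a height of 22, which covered 53.0% of the gene. Its summit lay 4.85 kb inside the gene. Among the 3 Hey genes the H3K4me3 heights were therefore ordered Hey1 (124), Hey2 (64) and Heyl (30), and the H3K27me3 heights Hey2 (39), Heyl (22) and Hey1 (18), without replicates to say which steps exceed experimental error.

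Rbpj, on chromosome 5 (53555779 to 53657445), is 102 kb long in the annotation and had 1 island in its whole window. This H3K4me3 island of 5.60 kb (53588601 to 53594199) with a height of 149 lay 32.8 kb inside the annotated gene, over both RefSeq starts of the promoter table (53590346 and 53590486). Its summit was 297 bp from the nearer start. No H3K27me3 island lay closer than 85.6 kb, so the DNA-binding partner of Notch had H3K4me3 only.

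Summits placed the marks more finely than windows did. An H3K4me3 summit lay inside 7 of the 10 genes (54.5% of all protein-coding genes): Hes1, Hes6, Hes7, Hey1, Hey2, Heyl and Rbpj. An H3K27me3 summit lay inside 6, Hes1, Hes2, Hes3, Hes5, Hey1 and Heyl, against 17.9% of all genes. Hes1, Hey1 and Heyl had summits of both marks inside the gene. Few islands lay near the 10 kb limit: the farthest islands counted were those of H3K4me3 at 8.45 kb from Hes3 (height 96) and 8.15 kb from Hes7 (height 33), and the nearest not counted were, for H3K4me3, at 11.7 kb from Hes6 (height 163, at Ilkap) and, for H3K27me3, at 14.0 kb from Heyl (height 6, at Nt5c1a). The farthest H3K27me3 island counted was that at 7.85 kb from Hes3 (height 11).

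Promoter sequence was in the RefSeq table (GRCm38.p6, 250 bases before to 50 after a transcript start) for 5 members, Hes5, Hes6, Hes7, Hey2 and Rbpj. Rbpj binds a core written GTGGGAA, or TTCCCAC on the other strand. This core was present in the promoters of Hes5, Hes7 and Hey2, while 6.07% of 21045 promoters of protein-coding genes hold it on either strand. Hes5 and Hey2 each have 2 matches, and 0.261% of all promoters (55) have 2 or more. The sequences are shown 5′ to 3′ on the gene's strand because they place this core under both marks in Hes5 and Hey2 and under H3K4me3 only in Hes7. Rbpj is shown as a promoter under H3K4me3 only that lacks it. Capitals mark the core.
Hes5, chr4:154960673-154960972, plus strand: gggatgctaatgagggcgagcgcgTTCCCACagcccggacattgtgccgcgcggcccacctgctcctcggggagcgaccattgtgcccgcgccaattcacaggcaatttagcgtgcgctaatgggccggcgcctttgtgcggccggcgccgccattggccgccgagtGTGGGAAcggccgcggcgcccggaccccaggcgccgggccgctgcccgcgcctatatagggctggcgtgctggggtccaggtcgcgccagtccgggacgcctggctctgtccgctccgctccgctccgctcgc
Hey2, chr10:30842734-30843033, minus strand: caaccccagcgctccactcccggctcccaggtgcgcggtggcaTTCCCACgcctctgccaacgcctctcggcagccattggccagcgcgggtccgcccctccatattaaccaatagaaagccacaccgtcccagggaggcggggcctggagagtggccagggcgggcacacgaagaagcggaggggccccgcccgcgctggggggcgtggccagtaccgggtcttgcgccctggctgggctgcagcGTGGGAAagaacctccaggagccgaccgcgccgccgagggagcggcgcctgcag
Hes7, chr11:69120203-69120502, plus strand: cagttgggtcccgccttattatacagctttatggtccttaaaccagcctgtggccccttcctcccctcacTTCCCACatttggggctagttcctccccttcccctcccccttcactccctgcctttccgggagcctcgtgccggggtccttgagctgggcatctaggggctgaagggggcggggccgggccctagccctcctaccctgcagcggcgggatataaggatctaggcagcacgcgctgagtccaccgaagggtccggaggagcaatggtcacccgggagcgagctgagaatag
Rbpj, chr5:53590096-53590395, plus strand: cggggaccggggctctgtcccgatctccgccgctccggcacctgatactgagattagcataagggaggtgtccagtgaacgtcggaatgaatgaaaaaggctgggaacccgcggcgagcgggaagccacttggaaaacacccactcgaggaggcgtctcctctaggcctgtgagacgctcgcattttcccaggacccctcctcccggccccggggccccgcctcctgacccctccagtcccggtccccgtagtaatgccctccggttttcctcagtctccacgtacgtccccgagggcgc

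In Hes5 the matches begin 226 and 83 bases before the start, and both lie under both islands. In Hey2 they begin 207 and 4 bases before the start, the second spanning it, and the H3K4me3 summit stood 30 bp from that start. The Hes7 match begins 180 bases before the start. Rbpj has the shorter core TGGGAA, which is contained in the longer one and found in 24.2% of promoters, at 2 places, and none of the longer core. The E box CACGTG was in none of the members' promoters (7.91% of all promoters hold it). CACGNG, a site type bound by Hes proteins, was found at Hes6 and Hes7 (31.7% of all promoters), as was the N box CACNAG (41.8%), and both motifs can overlap. TATAAA was found at 1 member, Hes6 (12.7%). A member counts here if any of its listed promoters holds the motif, while the shares are per promoter. At Hes6, CACGNG was only in the promoter of the start at 91414038, and CACNAG and TATAAA only in that of the start at 91413222. A match describes letters and not binding, and its absence refers to these windows only.

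CpG content differed among these promoters. Hes5 had 41 CpG dinucleotides in 300 bases, more than 95.5% of promoters, and Hey2 had 29. Those of Rbpj had 26 and 28, those of Hes6 14 and 21, and that of Hes7 had 14. The median was 13 over all promoters, 22 both under H3K4me3 only (9652 promoters) and under both marks (2512), 8 under H3K27me3 only (1072) and 3 under neither (7809). H3K4me3 islands covered all 7 listed promoters of these 5 genes (57.8% of all promoters), and H3K27me3 covered those of Hes5 and Hey2 (17% of all).

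**Figure D3:**
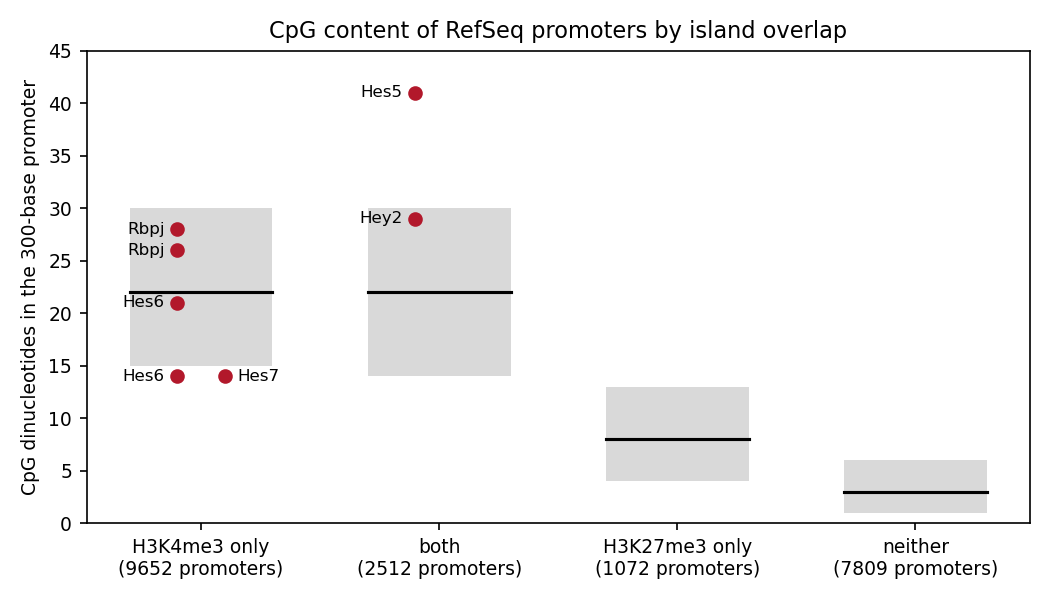
CpG dinucleotides per 300-base RefSeq promoter (vertical axis) by the islands that overlap it (horizontal axis). Grey boxes span the interquartile range of all promoters of that state, lines are medians, and red points are the 7 promoters of Hes5, Hes6, Hes7, Hey2 and Rbpj. Hes5, at 41, lies above the box of promoters with both marks.

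Other genes of the Notch pathway were counted in the same windows, from 39 genes named by function. H3K4me3 lay at 38 of them (67.4% of all genes) and H3K27me3 at 17 (32.7%), all 17 with both marks (27.5%). Islands of the marks overlapped at 14 of the 17 (21.5% of all genes). At Mib1, Psen2, Ncstn and Aph1a, H3K27me3 lay only beside the gene, and the gene body had H3K4me3 only. H3K4me3 only was found at 21 (39.8% of all genes). Among them were the receptor genes Notch1 (height 138 over the gene, and 191 for an island beside it) and Notch2 (185). The ligand gene Jag1 (137) and the glycosyltransferase gene Rfng (187) were others. Both marks were found at the receptor genes Notch3 (72 for H3K4me3, 26 for H3K27me3) and Notch4 (129 and 11, the islands apart) and at the ligand genes Dll1 (101 and 55) and Dll3 (146 and 48). The 146 belongs to an island beside Dll3, and over the gene itself the H3K4me3 height was 32. Summits were not placed for the listed genes, here or among the relatives below. The 129 of Notch4, from an island of 13.6 kb that touches the gene, may therefore belong to a neighbour. Mfng, a glycosyltransferase gene, had neither mark. Nrarp, a feedback inhibitor and Notch target chosen here after its values were seen, had the highest H3K27me3 of the list, 76 over 19.0 kb, with an H3K4me3 height of 52. The list's median heights were 137 for H3K4me3 and 37 for H3K27me3, beside 126 and 39 for the Hes, Hey and Rbpj genes.

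Relatives and partners of the Hes and Hey proteins, 12 genes, had H3K4me3 at 11 (67.4% of all genes) and H3K27me3 at 7 (32.7%). Both marks lay at 6 (27.5% of all genes) and overlapped at 5 (21.5%). The exception was Tle3, whose H3K27me3 island lay beside the gene. Among the 6 were the related repressor genes Bhlhe40 (77 and 14) and Bhlhe41 (105 and 39). Rbpjl, a paralogue of Rbpj (130 and 12), and the co-repressor gene Tle1 (164 and 26) were others. The 26 belongs to an island beside Tle1, and over the gene itself the H3K27me3 height was 17. Helt, a neural relative of the Hey genes, had H3K27me3 only (71 over 15.4 kb). H3K4me3 only was found at Tle2, Tle5 (listed as Aes), Tle6, Hdac1 and Sirt1. The island of height 131 at Tle5 is also the highest in the window of Tle2. Over Tle6 itself the H3K4me3 height was 10, and the 111 in its window is the height over Tle2. With only the islands above the median height, both marks stayed at 7 of the 39 pathway genes and 3 of these 12 (9.84% of all genes).

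**Figure D4:**
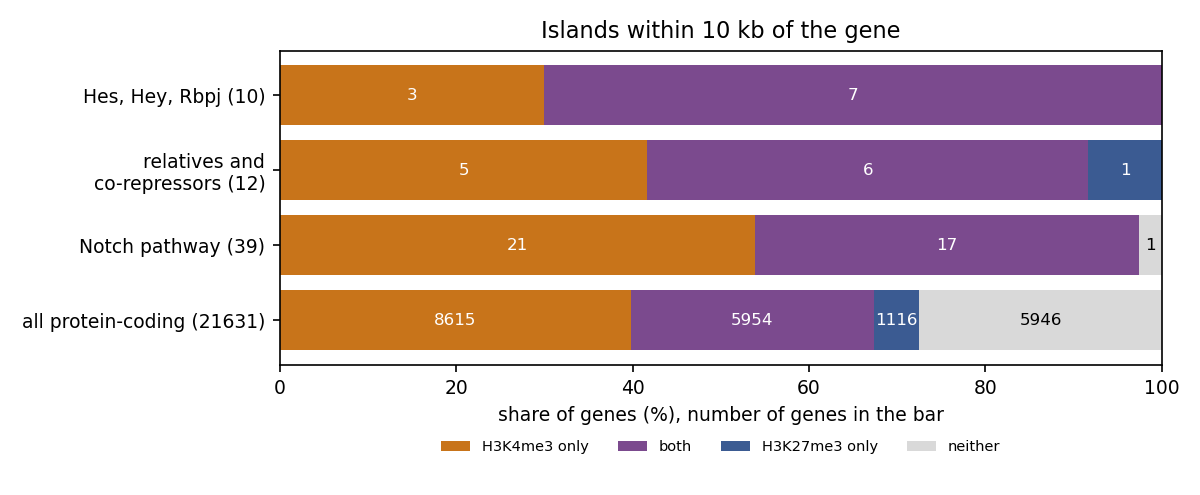
Share of genes (horizontal axis, %) by the islands within 10 kb, for all protein-coding genes, the Notch pathway list, the relatives and co-repressors, and the Hes, Hey and Rbpj genes. Numbers in the bars are genes: both marks lie at 7 of 10 members, 17 of 39 pathway genes and 5954 of 21631 genes.

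The labelled tissue was set against marker genes, which here show chromatin and not RNA. H3K4me3 lay at all 10 pulp mesenchyme markers, against 67.4% of all protein-coding genes. Heights there ran from 67 (Col1a2) to 205 (Msx2), with a median of 141. It lay at 4 of 5 dental epithelium markers with heights from 8 to 58, and at 1 of 4 endothelial markers (Kdr, 65). Of the 3 blood markers it lay at 2, Spi1 (30) and Cd68 (267, but 59 over the gene itself). H3K27me3 lay at 7 of the 10 pulp markers, overlapping H3K4me3 in all 7. It also lay at 4 of 5 epithelial, 1 of 4 endothelial and 1 of 3 blood markers (32.7% of all genes). At Krt5 and at the blood marker Spi1, H3K27me3 lay only beside the gene. Pecam1, Cdh5, Tek, Ptprc and Krt5 had no H3K4me3 island. The part of other cell types in the islands of the Hes and Hey genes was not tested.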

How the data were processed

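The H3K4me3 and H3K27me3 libraries came from EdU-positive incisor pulp cells, 1 library per mark. The submitters' processing notes name BWA, SICER and the build mm10; their versions and settings are not stated in the sources used here, and no input library was used for these marks, per the design text. The authors deposited islands and 1 summit per island, named so per the file headers, and the height of a summit is a score in whole numbers of unstated scaling. The 14361 H3K4me3 and 11341 H3K27me3 islands hold no read counts, so depth is unknown. Islands are built from 200 bp steps.

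Gene positions came from RefSeq (GRCm38.p6, the assembly called mm10); that gene table gives no strand, so gene ends are named by coordinate. An island was counted where it overlapped the gene plus 10 kb either side by at least 1 bp, with Python 3.11.15 and pandas 2.3.3. The overlap code was tested on simulated data. Members and lists were chosen with earlier results of these data known. The plan was to name all members, up to 4 listed genes per state in list order, genes under a member's island, and the 3 nearest to Hes1. Beyond it, Nrarp, all 5 relatives or partners with H3K4me3 only, markers, genes at islands outside the windows and listed genes that limit a count were named. The glial and neural marker list is not reported here. Gene strands and promoters were used for 5 members; protein sequences and signal tracks were not analysed here. Alternatives were other windows, higher-summit islands (above the median height), larger overlaps and merged islands.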

Additional observations from a re-analysis of the deposited data

How the results depend on the processing

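No paired analysis was possible because there was 1 library per mark and no test. Across windows of 0, 1, 5 and 20 kb, an overlap of at least 200 bp with 50% of the shorter island shared, and merging of islands within 1000 bp, the counts of members with H3K4me3 (8 to 10) and H3K27me3 (7 in each) and with both marks (5 to 7) stayed within 1.5 times those reported. With only the islands above the median height of their mark, both marks stayed at 3 members, overlapping in all 3 (4.62% of all genes). At Hes3 that overlap lay beside the gene and not over it. The same setting left 7 Notch pathway genes with both marks, 6 with H3K27me3 only and 3 with neither. It left 3 and 2 relatives or partners with both and with H3K27me3 only. Over all genes the shares were 9.84% with both, 13.5% with H3K27me3 only and 41.8% with neither. Of single members, within 1 kb Hes2 lost its H3K4me3 island and with it both marks, and the H3K4me3 island of Hes3 had a height of 11 and a width of 3.20 kb. Over the gene body alone Hes2 and Hes3 lost H3K4me3. The island nearest to the RefSeq start was tried for the 5 members with a promoter entry and was the one reported in each. Islands over the gene body and genes up to 20 kb were added after seeing the data; of the latter, 17.7% had H3K27me3 over the gene body. Depth is unknown, so a missing island is not read as absence of the mark.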
